A study of Mus musculus with 4 samples.

Results

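The proteases of mast cell and basophil granules were followed in leukocytes of mouse nasal mucosa as 8 genes of the 27998 listed, namely Mcpt1, Mcpt2, Mcpt4, Cma1, Tpsb2, Cpa3, Mcpt8 and Prss34. They were chosen by symbol, and every cell with at least 5 unique molecular identifiers (UMIs, each standing for 1 captured RNA molecule) of any of them was examined, which gave 97 of 79132 cells. The study concerned allergic rhinitis, an allergic inflammation of the nose, and the series concerned a ribavirin spray directed at viruses living in the nasal cavity. The mice were C57BL/6 and 8 weeks old in all 4 groups. Group Vehicle had received neither drug nor allergen, group Vehicle-OVA the vehicle with ovalbumin (OVA, the allergen), group Ribavirin the antiviral drug without allergen, and group Ribavirin-OVA both. In the rhinitis model the study describes, mice were sensitised by injection of OVA with an aluminium adjuvant and then challenged with OVA through the nose. The ribavirin dose, its schedule and the number of mice behind each library are not given in the sources used here.

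Mast cells and basophils store proteases in granules, bound to the proteoglycan serglycin, and release them when allergen cross-links IgE on the receptor FceRI. Mcpt1 and Mcpt2 are the proteases of mucosal mast cells, whereas Mcpt4, Cma1 (also called Mcpt5), Tpsb2 (Mcpt6) and Cpa3 are best known from connective tissue mast cells. Mcpt8 and Prss34 (Mcpt11) are the proteases of basophils. Mcpt1, Mcpt2, Mcpt4 and Cma1 belong to the chymase family, Tpsb2 and Prss34 to the tryptases, and Cpa3 is a carboxypeptidase that trims C-terminal residues.

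The members fell into 3 genomic places (GRCm38). Cma1, Mcpt1, Mcpt2, Mcpt4 and Mcpt8 lay on chromosome 14 within 144 kb (chr14:55941451-56085273), with the chymase genes Cma2 and Mcpt9 between them. Mcpt1 (chr14:56017971-56020384) and Mcpt2 (chr14:56042041-56044642) are read from the plus strand, and Cma1 (chr14:55941451-55944675), Mcpt4 (chr14:56059629-56062313) and Mcpt8 (chr14:56082166-56085273) from the minus strand. Prss34 and Tpsb2 lay on chromosome 17 within 70.7 kb (chr17:25298394-25369098), and Cpa3 stood alone at chr3:20215620-20242181. RefSeq promoter sequence (GRCm38.p6) was at hand for 6 of the 8 members, and 5 of them are shown. Mcpt1, Mcpt4, Cpa3 and Cma1 were chosen because they were higher together with OVA. Mcpt8 was also higher with OVA but lay mostly outside the mast-like cells described later. Each line holds the 250 bases before the annotated start, read 5′ to 3′ on the gene's own strand, at chr14:56017714-56017963 (plus strand) for Mcpt1, chr14:56062311-56062560 (minus) for Mcpt4, chr3:20242182-20242431 (minus) for Cpa3, chr14:55944676-55944925 (minus) for Cma1 and chr14:56085198-56085447 (minus) for Mcpt8. Capitals mark the GATA motif, searched as AGATAA or TGATAA on both strands.
Mcpt1: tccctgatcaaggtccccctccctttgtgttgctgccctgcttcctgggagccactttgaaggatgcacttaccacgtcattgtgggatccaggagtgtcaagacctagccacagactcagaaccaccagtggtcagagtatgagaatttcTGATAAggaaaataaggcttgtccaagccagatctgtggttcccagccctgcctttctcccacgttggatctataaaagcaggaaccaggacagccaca
Mcpt4: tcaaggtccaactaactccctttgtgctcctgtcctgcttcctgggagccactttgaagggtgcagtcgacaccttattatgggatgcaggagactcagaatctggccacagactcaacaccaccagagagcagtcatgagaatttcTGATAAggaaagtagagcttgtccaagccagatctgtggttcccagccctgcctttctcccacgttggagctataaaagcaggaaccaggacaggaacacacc
Cpa3: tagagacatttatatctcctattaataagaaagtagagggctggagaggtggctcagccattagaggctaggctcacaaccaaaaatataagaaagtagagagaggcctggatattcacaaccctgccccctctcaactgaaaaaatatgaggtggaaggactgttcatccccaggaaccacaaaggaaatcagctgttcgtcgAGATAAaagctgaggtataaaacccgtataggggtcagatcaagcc
Cma1: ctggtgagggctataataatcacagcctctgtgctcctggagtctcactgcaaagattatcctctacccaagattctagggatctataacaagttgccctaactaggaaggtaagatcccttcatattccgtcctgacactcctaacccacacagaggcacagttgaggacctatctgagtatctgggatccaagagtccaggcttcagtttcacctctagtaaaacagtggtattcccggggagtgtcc
Mcpt8: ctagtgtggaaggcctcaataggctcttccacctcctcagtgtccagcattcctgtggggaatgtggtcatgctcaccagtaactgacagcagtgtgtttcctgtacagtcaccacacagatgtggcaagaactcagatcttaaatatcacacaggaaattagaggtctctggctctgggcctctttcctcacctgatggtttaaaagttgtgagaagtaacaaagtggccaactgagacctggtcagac

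The Mcpt1 and Mcpt4 promoters were 81.9% identical and shared a run of 53 bases, whereas identity between the other pairs of the 6 was 47.2% to 54.1%. A GATA motif lay 99 bases before the start of Mcpt1, 103 before Mcpt4, 46 before Cpa3 and 31 before Prss34, so in 4 of 6 promoters, against 16.6% of 32851 promoters of the same length. The matches of Mcpt1 and Mcpt4 have the same flanking bases in these similar promoters, so they are not separate finds. No such match was found in these windows of Mcpt8 and Cma1. The shorter letters GATAA (both strands) were found 1 time in the promoter of Cma1 and 0 times in that of Mcpt8. Of all promoters 22.6% held them. The E-box letters CANNTG (both strands) were found 3 times in the promoter of Mcpt8, 2 times each in those of Cpa3 and Prss34, and 1 time in that of Cma1, so in 4 of 6 against 66.2% of all promoters. No E-box match overlapped a GATA match in these promoters. These matches describe the letters and were not tested for binding. Over the last 400 bases of their transcripts, which the 3′ libraries read, 14.5% of the 50-base words of Mcpt4 also occurred in Cma2, so the Mcpt4 count is uncertain to that extent. No 50-base word of the other 7 members was shared with another gene of the 12 searched.

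The 4 libraries, 1 per group, held 10311 to 28277 cells and 91742940 to 171873110 UMIs, and a cell had a median of 3389 to 4952 UMIs. With 1 library per group the spread between mice is unknown, so no difference was tested, and the 95% intervals cover counting error only. The intervals of levels and ratios treat each UMI as a separate draw and do not cover the spread between cells. Cells with at least 5 Mcpt1 UMIs numbered 7 in Vehicle, 6 in Vehicle-OVA, 3 in Ribavirin and 26 in Ribavirin-OVA. They held 94.97% to 98.5% of the Mcpt1 UMIs of a library, so such intervals are too narrow for so few cells. A UMI of Ptprc, the gene of CD45 used to isolate the cells, was found in 81.3% to 89.3% of them. Cells with 10% or more mitochondrial UMIs made up 5.18% to 14.3% of a library, and 29.1% to 45.8% of cells carried at least 3 of 6 markers of 2 cell classes and are called mixed here. No doublet caller was run. A pair of libraries shared 57 to 174 cell barcodes, and no shared barcode was a protease cell in both.

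Protease RNA was abundant in the OVA libraries and scarce in the others. Of Mcpt1, the libraries held 696 UMIs in Vehicle, 14938 in Vehicle-OVA, 732 in Ribavirin and 39814 in Ribavirin-OVA, or 4.05, 145, 4.36 and 434 counts per 1000000 UMIs of the library (CPM). Mcpt2 gave 3.36, 128, 3.59 and 328 CPM in the same order. Both mucosal proteases were thus at one low level without OVA and highest in Ribavirin-OVA. Mcpt1 was 35.9-fold higher in Vehicle-OVA than in Vehicle (33.3 to 38.8) and 99.6-fold higher in Ribavirin-OVA than in Ribavirin (92.6 to 107). For Mcpt2 these folds were 38.2 (35.1 to 41.6) and 91.4 (84.3 to 99.2).

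The members known from connective tissue mast cells were higher with OVA as well. Mcpt4 was nearly absent without OVA, with 3 UMIs in Vehicle and 2 in Ribavirin, against 1461 in Vehicle-OVA and 3000 in Ribavirin-OVA. The ratios on such small counts were 814 (278 to 3953) and 2748 (760 to 22700). Tpsb2, a tryptase, had 9, 770, 17 and 904 UMIs in the order Vehicle, Vehicle-OVA, Ribavirin, Ribavirin-OVA, a ratio of 143 (75.0 to 314) with vehicle and 97.4 (60.5 to 168) with ribavirin. Cpa3 stood at 0.570, 9.85, 0.565 and 22.6 CPM, 17.3-fold (14.04 to 21.5) and 40.0-fold (32.6 to 49.7) higher with OVA. Cma1 showed the smallest folds of the chymases, 8.52 (7.58 to 9.60) and 14.9 (13.2 to 16.9), from 1.99, 16.96, 1.71 and 25.5 CPM.

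The basophil proteases behaved differently from each other. Mcpt8 had 25, 618, 16 and 394 UMIs in that order and was 41.3-fold (27.7 to 64.4) and 45.1-fold (27.4 to 79.7) higher with OVA, but 1 cell held 46.9% of the Mcpt8 UMIs of Vehicle-OVA. Prss34 was the rarest member with 21, 11, 1 and 4 UMIs. Its ratio with OVA was 0.876 (0.381 to 1.90) with vehicle and 7.33 (0.725 to 361) with ribavirin, and both intervals include 1.

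**Figure D1:**
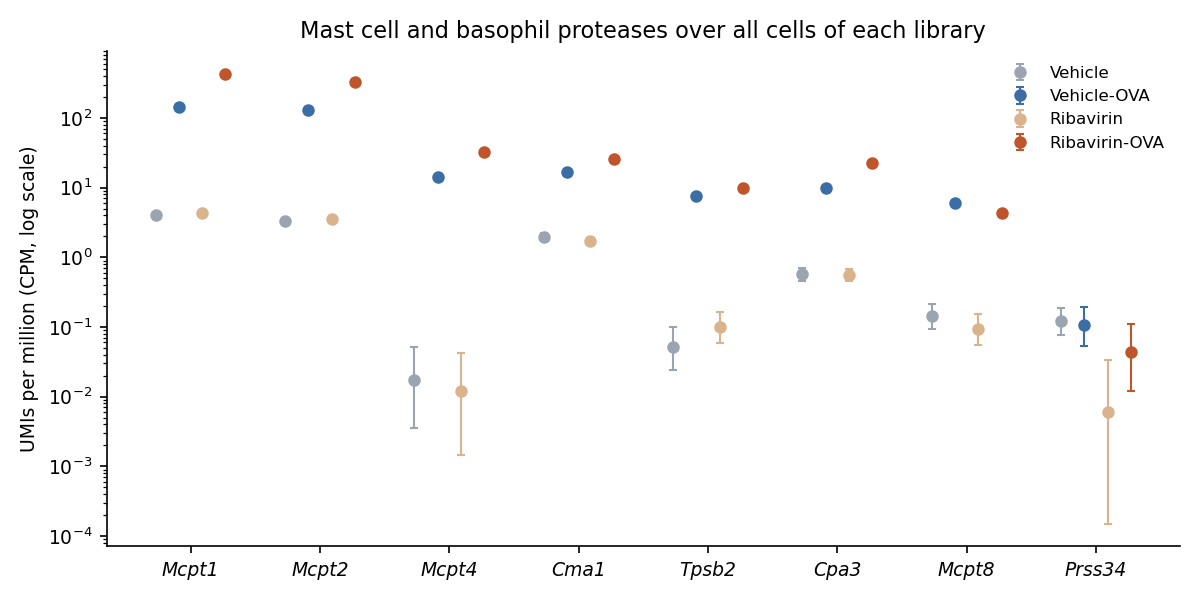
Level of each protease in the 4 libraries, in CPM of the library on a log axis, with exact Poisson 95% intervals. Mcpt1 and Mcpt2 reach 434 and 328 CPM in Ribavirin-OVA and 4.36 and 3.59 in Ribavirin, while Prss34 stays at or under 0.122 CPM in every library.

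Read against all genes, 7 of the 8 members were at least 2-fold higher in Vehicle-OVA than in Vehicle, where 12.8% of 16872 genes were, and 0 were at least 2-fold lower, where 12.5% were. All 8 were at least 2-fold higher in Ribavirin-OVA than in Ribavirin (12.5% of 16877 genes) and 0 at least 2-fold lower (3.44%). With the libraries scaled by median-of-ratios size factors in place of their UMI totals, every log2 ratio of that pair was lower by 0.39, the shares over all genes were 4.55% higher and 7.95% lower, and all 8 members still passed. The median log2 fold of the members was 5.21 and 6.00, against medians of −0.04 and 0.40 over all genes. Prss34, with 37 UMIs over all libraries, lay under the minimum of 50 UMIs of that background.

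Between the libraries without OVA, no member was at least 2-fold higher in Ribavirin than in Vehicle (15.7% of 16873 genes were), and 1, Prss34, was at least 2-fold lower (0.593%), with a ratio of 0.0487 (0.00118 to 0.303) that rests on the 21 UMIs of 1 Vehicle cell. The ratio was 1.08 (0.968 to 1.19) for Mcpt1, 1.07 (0.950 to 1.198) for Mcpt2 and 0.991 (0.740 to 1.33) for Cpa3. It was 0.858 (0.731 to 1.007) for Cma1, 1.93 (0.814 to 4.92) for Tpsb2, 0.654 (0.327 to 1.28) for Mcpt8 and 0.682 (0.0569 to 5.95) for Mcpt4, the last 3 on at most 25 UMIs a library. All 7 of these intervals include 1. The Mcpt1 and Mcpt2 values rest on few cells. The highest cell held 40.4% of the Mcpt1 UMIs of Vehicle and 59.0% of those of Ribavirin. For Mcpt2 it held 35.8% and 53.1%. Between the OVA libraries, 4 members were at least 2-fold higher in Ribavirin-OVA than in Vehicle-OVA (23.0% of 16867 genes) and 1, Prss34, was at least 2-fold lower (4.11%). Those 4 were Mcpt1 at 2.99-fold (2.93 to 3.04), Mcpt2 at 2.55-fold (2.50 to 2.61), Mcpt4 at 2.30-fold (2.16 to 2.45) and Cpa3 at 2.29-fold (2.13 to 2.48). Scaling by size factors lowered every log2 ratio of this pair by 0.45 and ended 3 of the 4 calls, leaving Mcpt1 at a log2 value of 1.13, Mcpt2 at 0.90, Mcpt4 at 0.75 and Cpa3 at 0.75, where 13.8% of all genes were at least 2-fold higher and 7.58% lower. Tpsb2, at 1.32-fold (1.19 to 1.45) by CPM, then stood at −0.057. Mcpt8 was at 0.714 of the Vehicle-OVA level (0.628 to 0.812), but this direction rested on the Vehicle-OVA cell with 46.9% of its UMIs, and the log2 ratio of −0.49 turned to 0.18 without the highest cell of each library. The members' median log2 fold was 0.89 in that pair, where the median of all genes was 0.49.

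The 97 protease cells numbered 17 in Vehicle, 25 in Vehicle-OVA, 15 in Ribavirin and 40 in Ribavirin-OVA. As a share of the library this was 0.0601% (exact binomial interval 0.0350 to 0.0962), 0.131% (0.0845 to 0.193), 0.0701% (0.0392 to 0.116) and 0.388% (0.277 to 0.528). The share was therefore 2.17-fold higher with OVA in the vehicle pair (1.13 to 4.29) and 5.53-fold higher in the ribavirin pair (2.99 to 10.8), far less than the RNA itself. The former ratio turned on the threshold and on mixed cells, since it fell to a log2 value of −0.037 at 3 UMIs and −0.16 without mixed cells. At 10 UMIs it was higher, with shares of 0.0888% in Vehicle-OVA and 0.0248% in Vehicle. Enrichment for CD45 and the enzymatic digestion can set such shares.

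Each cell was then assigned to 1 of 16 classes by how many of the class's 6 marker genes it carried. None of the 8 members was among the markers. Mast cells were parted from basophils by 4 markers a side. Of these, Kit on the mast side and Cd200r3 on the basophil side were also among the 6 class markers. These classes are rebuilt here and are written with "-like". Of the 97 cells, 44 were mast-like, 24 basophil-like, 19 natural killer (NK)-like, 4 neutrophil-like, 3 like group 2 innate lymphoid cells (ILC2), 2 T cell-like and 1 macrophage-like. Among all cells, mast-like cells numbered 8, 10, 6 and 23 in the order Vehicle, Vehicle-OVA, Ribavirin, Ribavirin-OVA (0.0283%, 0.0522%, 0.0280% and 0.223% of cells), and basophil-like cells 5, 20, 9 and 27. Neutrophil-like cells made up 30.6%, 67.8%, 36.0% and 30.5% of cells in the same order. Shares of all cells and CPM of whole libraries therefore also depend on how many neutrophil-like cells a library held. Kit, the receptor of stem cell factor that marks mast cells, was found in 8 of 8, 10 of 10, 6 of 6 and 22 of 23 mast-like cells, which describes the assignment, since Kit was among the markers that set both the class and its mast side. Mrgprb2, also on the mast side, had no UMI in those of Vehicle and Ribavirin. Mitf, of the same side, was found in 4 of 8, 5 of 10, 1 of 6 and 20 of 23 mast-like cells. Slc6a4, the last marker of that side, went the other way. It was found in 0 of 8, 1 of 10, 0 of 6 and 2 of 23 mast-like cells. Among basophil-like cells Slc6a4 was found in 3 of 5, 0 of 20, 1 of 9 and 9 of 27. A basophil-like cell of Ribavirin-OVA was the only 1 of its class with Kit.

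**Figure D2:**
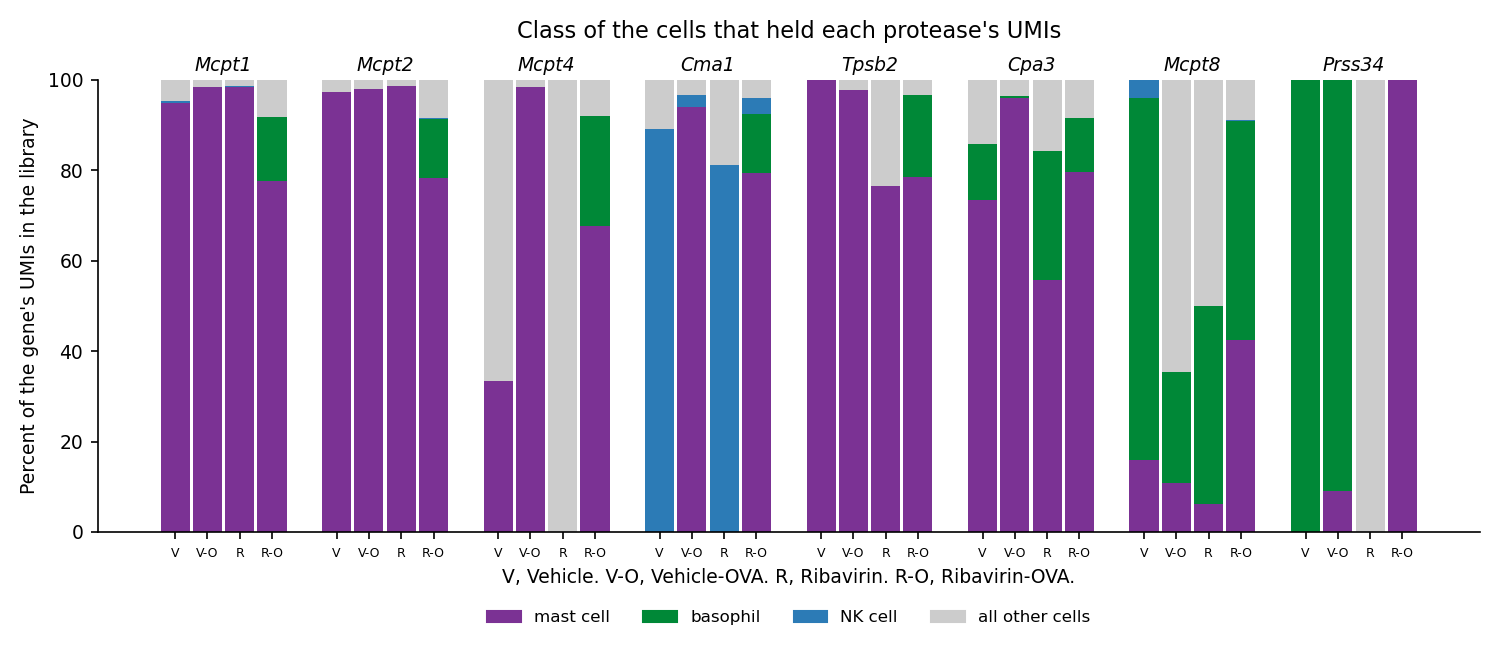
Share of each protease's UMIs, in percent, that lay in mast-like, basophil-like, NK-like and all other cells, 1 stacked bar for each library (V, Vehicle; V-O, Vehicle-OVA; R, Ribavirin; R-O, Ribavirin-OVA). Mast-like cells hold 94.97% of the Mcpt1 UMIs of Vehicle and 98.5% of those of Vehicle-OVA, whereas 89.2% of the Cma1 UMIs of Vehicle lie in NK-like cells.

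Mcpt1 and Mcpt2 were almost entirely RNAs of mast-like cells. Of the 42 cells with at least 5 Mcpt1 UMIs, 39 were mast-like, and the same numbers held for Mcpt2. Mast-like cells held 94.97%, 98.5%, 98.5% and 77.7% of all Mcpt1 UMIs in the order Vehicle, Vehicle-OVA, Ribavirin, Ribavirin-OVA. In the last library most of the rest came from 2 mixed cells. A basophil-like cell of 52870 UMIs held 5578 UMIs of Mcpt1, 3936 of Mcpt2, 729 of Mcpt4, 230 of Cpa3 and 54 of Kit. An ILC2-like cell with all 6 markers of the mast cell or basophil list held 2257 of Mcpt1. Whether those were joined cells was not tested.

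Mast-like cells of the OVA libraries also held far more protease RNA per cell. The 8 proteases made up 5.47% of the UMIs of mast-like cells in Vehicle, 26.1% in Vehicle-OVA, 4.22% in Ribavirin and 18.4% in Ribavirin-OVA. Mcpt1 ranged from 0 to 281 UMIs a cell in Vehicle (median 58.5, 8 cells), from 0 to 3424 in Vehicle-OVA (median 1341, 10 cells), from 0 to 432 in Ribavirin (median 15.5, 6 cells) and from 7 to 3227 in Ribavirin-OVA (median 1263, 23 cells). The cells of OVA libraries were therefore mostly above, but overlapped with, those without OVA. They were deeper too, with medians of 3094, 11056, 4413.5 and 13636 UMIs, so levels are also given per UMI of the class. On that scale Mcpt1 was 4.27-fold higher in Vehicle-OVA than in Vehicle (3.95 to 4.62) and 4.24-fold higher in Ribavirin-OVA than in Ribavirin (3.94 to 4.57). Mcpt2 was 4.41-fold (4.05 to 4.81) and 3.91-fold (3.61 to 4.25) higher. Cpa3 was 2.59-fold (2.04 to 3.34) and 3.08-fold (2.34 to 4.13) higher. The log2 fold of Mcpt1 was 2.09 and 2.08, and became 1.76 and 1.51 without the deepest mast-like cell of each library and 1.83 and 2.72 without mixed cells.

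Some members differed by their presence. Cma1, a chymase, had 0 UMIs in all 8 mast-like cells of Vehicle, which allows a share of up to 36.9% of such cells with a UMI, and 0 in all 6 of Ribavirin (up to 45.9%). These bounds do not limit the share of cells that express the gene, since the cells of Vehicle had 1212 to 4812 UMIs. It ranged from 0 to 399 UMIs in the 10 cells of Vehicle-OVA (median 85.5) and from 0 to 521 in the 23 of Ribavirin-OVA (median 44). Against a floor of 3 counts over the class, Cma1 was at least 105-fold higher in Vehicle-OVA and at least 61.2-fold higher in Ribavirin-OVA. Mcpt4 gave 1 UMI in the mast-like cells of Vehicle, 1438 in Vehicle-OVA (median 113.5 a cell), 0 in Ribavirin and 2033 in Ribavirin-OVA (median 65). Its ratio was 276 (49.4 to 10898) with vehicle and, with no UMI in Ribavirin, at least 67.0 against the floor. Tpsb2 was present without OVA, at 9 and 13 UMIs, and was 16.0-fold (8.41 to 35.2) and 5.396-fold (3.14 to 10.2) higher with it. At an equal depth of 1000 UMIs a cell, Mcpt4 was still seen in 0 of 8, 7 of 10, 0 of 6 and 20 of 23 mast-like cells, and Cma1 in 0 of 8, 8 of 10, 0 of 6 and 20 of 23. Mcpt1 was seen at that depth in 7 of 8, 6 of 10, 4 of 6 and 23 of 23.

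**Figure D3:**
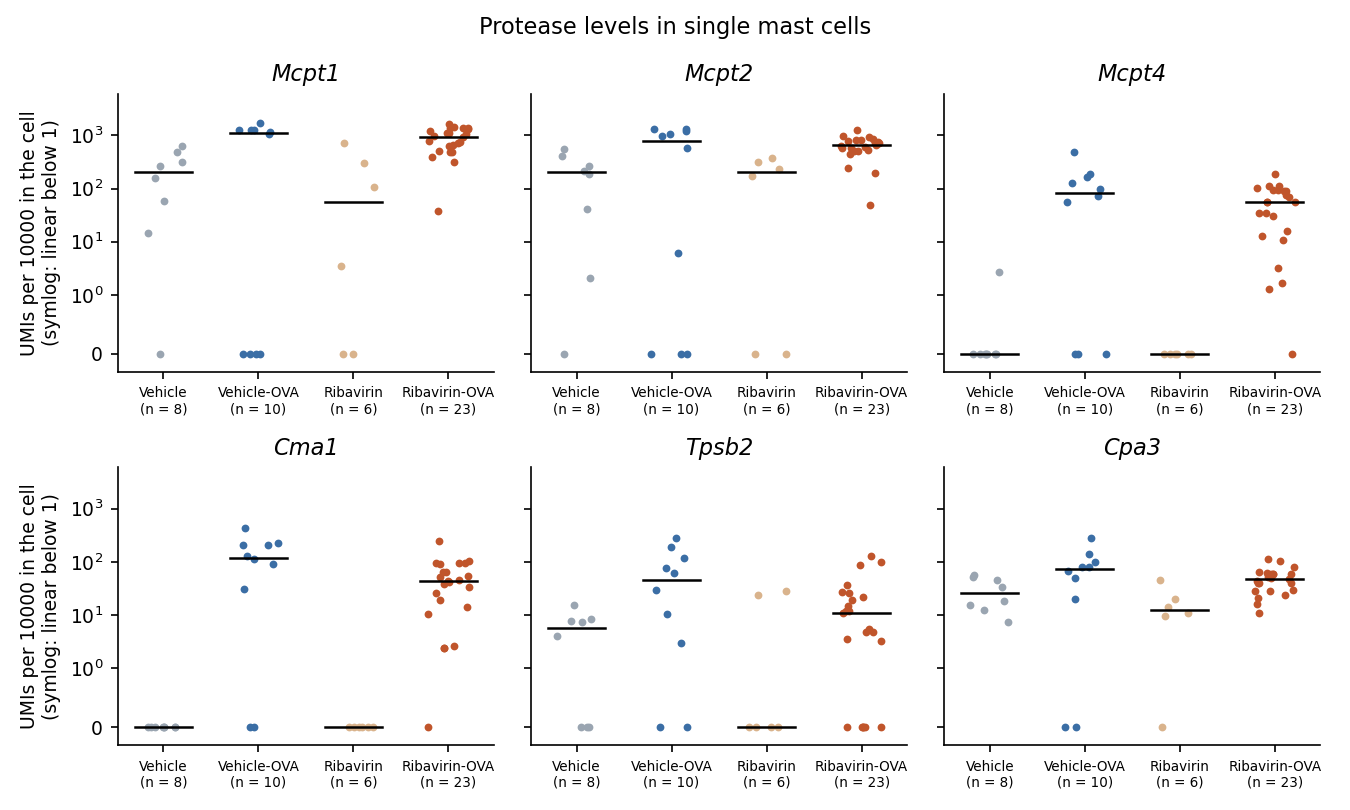
UMIs of each protease per 10000 UMIs of the cell in single mast-like cells, on an axis that is linear near 0 and logarithmic above, by library (8, 10, 6 and 23 cells), with a line at the median. Cma1 is at 0 in every mast-like cell of Vehicle and Ribavirin, and its median is 120 in Vehicle-OVA and 43.3 in Ribavirin-OVA.

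The main parts of the granule RNA stood in similar proportions. Mcpt1 gave 50.5%, 45.3%, 52.1% and 50.8% of the protease UMIs of mast-like cells in the order Vehicle, Vehicle-OVA, Ribavirin, Ribavirin-OVA, and Mcpt2 gave 42.9%, 39.8%, 43.0% and 38.7%. Cpa3 gave 5.50%, 2.99%, 3.83% and 2.71%. Mcpt4 and Cma1 filled 4.42% and 5.04% in Vehicle-OVA and 3.34% and 3.05% in Ribavirin-OVA. Of the Mcpt1 and Mcpt2 UMIs of a cell with at least 5 of each, the median share of Mcpt1 was 58.8%, 54.2%, 44.6% and 58.0% in 6, 6, 3 and 26 cells.

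Between the OVA libraries the order within mast-like cells was the reverse of the order in the whole libraries. Per UMI of the class, Mcpt1 was lower in Ribavirin-OVA than in Vehicle-OVA, at a ratio of 0.791 (0.776 to 0.807), and so were Mcpt2 at 0.686 (0.672 to 0.701), Cpa3 at 0.639 (0.590 to 0.692), Mcpt4 at 0.532 (0.497 to 0.570), Cma1 at 0.427 (0.400 to 0.457) and Tpsb2 at 0.355 (0.320 to 0.394). The Mcpt8 ratio of 0.938 (0.702 to 1.26) included 1. Mast-like cells were a larger share of the cells in Ribavirin-OVA, 0.223% against 0.0522%. Neutrophil-like cells were a smaller share there, 30.5% against 67.8%, and each such share depends on the other cells of its library. With 10 and 23 cells from 1 library each, the spread between mice behind these ratios is unknown.

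Mast-like cells held different sets of proteases. In Vehicle-OVA 2 of the 10 had no UMI of any member, as had 1 of the 6 in Ribavirin, but these 3 cells carried only 2 of the 6 class markers, Kit at 2 to 4 UMIs and Hdc at 1 UMI, with 0 of Fcer1a, Ms4a2, Gata2 and Cd200r3. Their assignment to the class is thus weak, and the Ribavirin cell, of 10514 UMIs, made up that much of the 32770 UMIs of its class. Mast-like cells with at least 3 of the 6 markers numbered 7, 8, 5 and 22 in the order Vehicle, Vehicle-OVA, Ribavirin, Ribavirin-OVA, and each held a member. In these cells the proteases made up 6.75%, 27.2%, 6.21% and 18.5% of UMIs, and the log2 fold of Mcpt1 with OVA was 1.85 with vehicle and 1.53 with ribavirin. A Vehicle-OVA cell of 4682 UMIs held 131 UMIs of Cpa3, 97 of Cma1, 55 of Tpsb2 and 44 of Mcpt8, with none of Mcpt1, Mcpt2 or Mcpt4. A further 1 of 1613 UMIs held 79 of Mcpt4, 69 of Cma1, 45 of Tpsb2 and 23 of Cpa3, with 0 of Mcpt1 and 1 of Mcpt2. Both held Cpa3, Cma1 and Tpsb2 with at most 1 UMI of Mcpt1 or Mcpt2, but only the second held Mcpt4. The first also held the basophil protease Mcpt8 and had 13.5% mitochondrial UMIs. Both cells were picked out after their values were seen. In Ribavirin-OVA all 23 mast-like cells held Mcpt1 and Mcpt2, from 7 and 9 UMIs upward.

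The 97 cells showed a few combinations of proteases at 5 UMIs each. Mcpt8 alone was found in 23 cells, Cma1 alone in 20 and Cpa3 alone in 6. The set of Mcpt1, Mcpt2, Mcpt4, Cpa3, Cma1 and Tpsb2 was found in 16 cells, 5 of Vehicle-OVA and 11 of Ribavirin-OVA, and in 4 further cells together with Mcpt8. Without OVA no cell held more than 3 proteases at that threshold. Those with 3 held Mcpt1, Mcpt2 and Cpa3 (2 cells of Vehicle and 2 of Ribavirin) or Mcpt1, Mcpt2 and Tpsb2 (1 cell of Ribavirin). The threshold was not adjusted for depth, and 1 to 4 UMIs count as absent here. Mast-like cells had medians of 3094 UMIs in Vehicle and 4413.5 in Ribavirin, against 11056 in Vehicle-OVA and 13636 in Ribavirin-OVA. Mcpt1 and Mcpt2 met in 41 cells, 97.6% of the cells with each. Mcpt4 met Mcpt1 in 28 cells, which is 96.6% of the Mcpt4 cells and 66.7% of the Mcpt1 cells. Mcpt8 met Mcpt1 in 7 cells, 21.2% of the Mcpt8 cells and 16.7% of the Mcpt1 cells. These pairs were counted over 42 cells with Mcpt1, 42 with Mcpt2, 29 with Mcpt4 and 33 with Mcpt8.

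**Figure D4:**
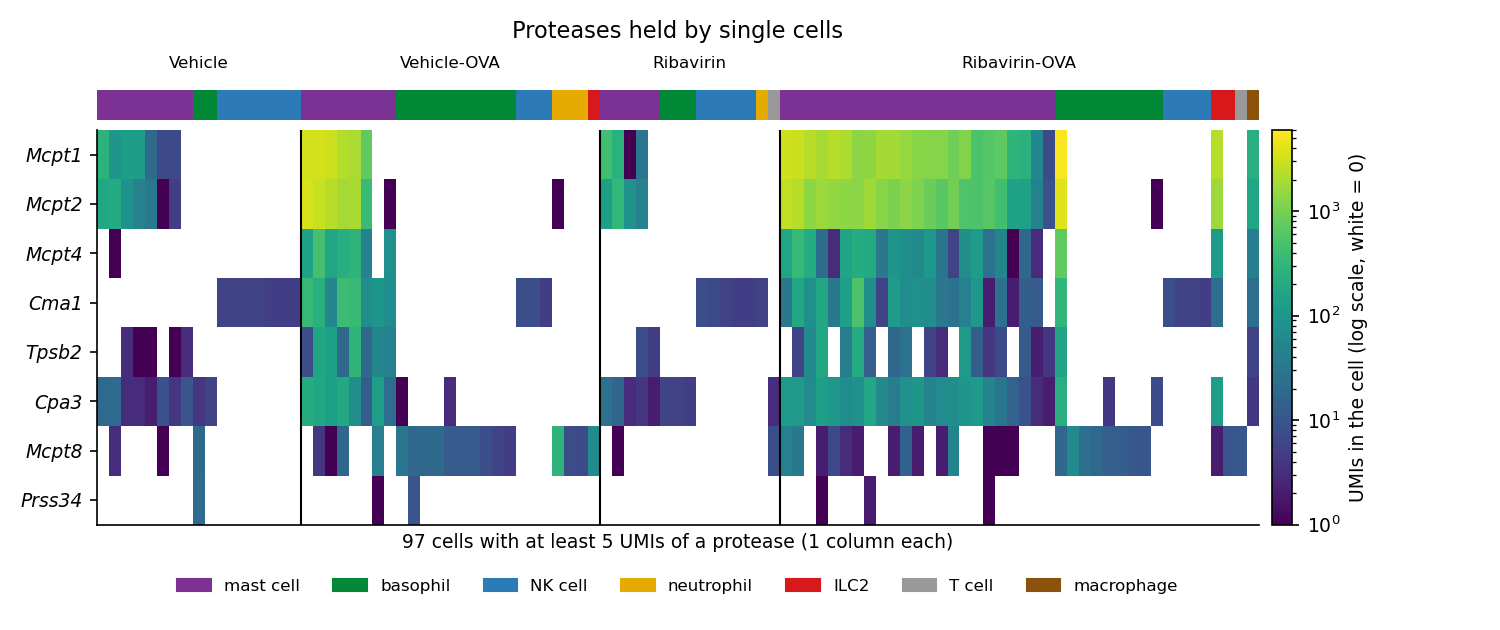
UMIs of the 8 proteases (rows) in the 97 cells with at least 5 UMIs of any of them (columns, grouped by library, with the cell's class as a strip on top), on a log colour scale with white for 0. Counted at 5 UMIs of each with no adjustment for depth, the mast-like cells of Vehicle-OVA and Ribavirin-OVA carry up to 7 proteases together. At that threshold 20 cells carry Cma1 alone and 23 carry Mcpt8 alone.

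The cells with at least 5 Mcpt8 UMIs were mostly basophil-like, but most of its UMIs lay in other cells in every library except Vehicle. Of the 33 cells with at least 5 Mcpt8 UMIs, 19 were basophil-like, 7 mast-like, 3 neutrophil-like, 2 ILC2-like and 2 T cell-like. Basophil-like cells ranged from 0 to 20 Mcpt8 UMIs in Vehicle (median 0, 5 cells), 0 to 30 in Vehicle-OVA (median 4.5, 20 cells), 0 to 3 in Ribavirin (median 0, 9 cells) and 0 to 63 in Ribavirin-OVA (median 1, 27 cells). The basophil-like cells thus overlapped between all 4 libraries, and 1 of 5, 13 of 20, 4 of 9 and 14 of 27 held any Mcpt8. Per UMI of the class, Mcpt8 stood at 955, 1666, 200 and 1197 CPM, 1.75-fold (1.09 to 2.94) higher in Vehicle-OVA than in Vehicle and 5.99-fold (2.85 to 15.1) higher in Ribavirin-OVA than in Ribavirin. All 20 UMIs behind the Vehicle value came from 1 cell. Basophil-like cells held 80.0%, 24.4%, 43.8% and 48.5% of the Mcpt8 UMIs of the library in the order Vehicle, Vehicle-OVA, Ribavirin, Ribavirin-OVA. Mast-like cells held 10.8% of those of Vehicle-OVA and 42.4% of those of Ribavirin-OVA, with up to 44 and 51 UMIs in a cell, and neutrophil-like cells 52.8% of those of Vehicle-OVA.

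Several cells with much Mcpt8 stood outside the basophil-like class. The highest, with 290 UMIs in Vehicle-OVA, was neutrophil-like by its markers, but it also carried 4 of the 6 markers of the mast cell or basophil list and was mixed. An ILC2-like cell of Vehicle-OVA held 66 Mcpt8 UMIs and 3 of those 6 markers, and a T cell-like cell of Ribavirin held 8 and 5 of the 6. In contrast, an ILC2-like and a T cell-like cell of Ribavirin-OVA held 10 and 11 Mcpt8 UMIs with 0 of the 6 markers. Leaving out mixed cells lowered the basophil-like protease cells from 24 to 7.

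Prss34 was found at 5 or more UMIs in 2 cells, both basophil-like and both with Mcpt8. The Vehicle cell held 21 UMIs of Prss34 and 20 of Mcpt8, and the Vehicle-OVA cell 10 and 18. No other basophil-like cell had a Prss34 UMI.

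Basophil-like cells lacked the mast cell chymases. No UMI of Mcpt1, Mcpt2, Mcpt4, Cma1 or Tpsb2 was found in those of Vehicle, Vehicle-OVA and Ribavirin, which for Mcpt1 allows up to 176, 40.7 and 105 CPM (exact Poisson upper bounds). In Ribavirin-OVA the Mcpt1 UMIs of the class were 5579, of which 5578 belonged to the cell of 52870 UMIs. Cpa3 was present at a low level, in 12, 4, 27 and 247 UMIs, of which 230 of the last belonged to that same cell. It was lower in Vehicle-OVA than in Vehicle, at a ratio of 0.0771 (0.0181 to 0.254). The ratio of 2.01 (1.35 to 3.11) between Ribavirin-OVA and Ribavirin turned to a log2 value of −2.27 when that cell was left out, so Cpa3 per UMI was lower with OVA in the remaining basophil-like cells of both pairs.

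Cma1 had a further source, the NK-like cells. Of the 51 cells with at least 5 Cma1 UMIs, 28 were mast-like and 19 NK-like, and the NK-like ones held 5 to 8 UMIs. NK-like cells held 89.2% of the Cma1 UMIs in Vehicle and 81.2% in Ribavirin, but 2.75% and 3.55% in the OVA libraries. A Cma1 UMI was found in 28.8%, 19.3%, 26.2% and 29.3% of NK-like cells in the order Vehicle, Vehicle-OVA, Ribavirin, Ribavirin-OVA (573, 83, 520 and 147 cells). The share in T cell-like cells, which should lack the gene, was 0.124%, 0.290%, 0.148% and 0.175%. Depth was similar, with a median of 3451 to 5185 UMIs in NK-like cells and 4208 to 5434.5 in T cell-like cells. At 1000 UMIs a cell, 15.7%, 9.88%, 10.2% and 13.1% of NK-like cells held Cma1.

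The Cma1 level of NK-like cells did not follow that of mast-like cells. It was 133, 92.9, 102.1 and 86.1 CPM in the same order. The ratio with OVA was 0.699 (0.504 to 0.950) with vehicle and 0.843 (0.648 to 1.09) with ribavirin, while Ribavirin against Vehicle gave 0.768 (0.645 to 0.914). NK-like cells that passed 5 UMIs held no other member at that level. Counted only over cells of any class with 1 to 4 Cma1 UMIs, the ratio of the libraries with OVA to those without was below 1, at log2 values of −1.09 and −0.30.

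**Figure D5:**
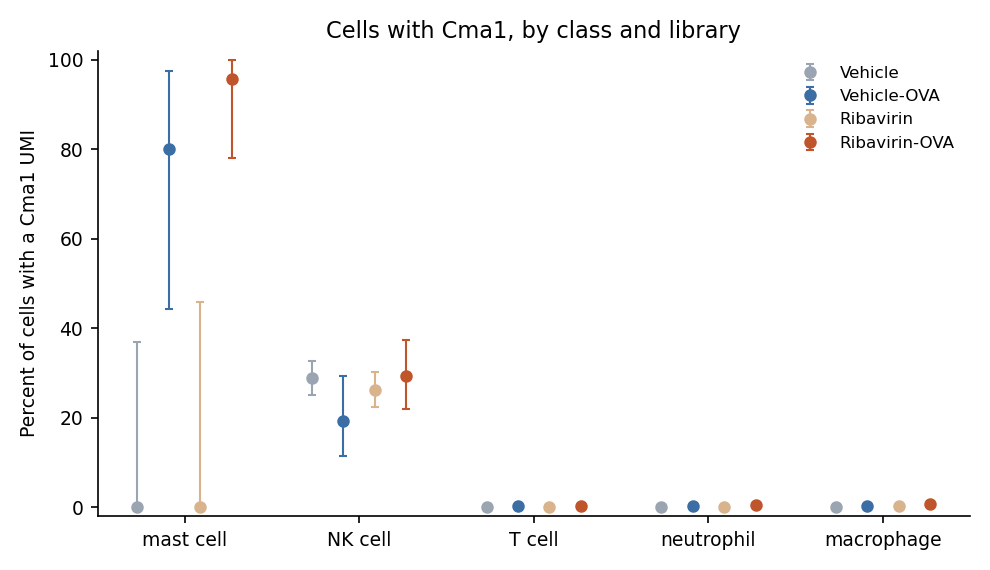
Percent of cells with at least 1 Cma1 UMI in the mast-like, NK-like, T cell-like, neutrophil-like and macrophage-like classes of each library, with exact binomial 95% intervals. NK-like cells lie between 19.3% and 29.3% in all 4 libraries and the T cell-like cells at or under 0.290%, whereas mast-like cells go from 0 without OVA to 80.0% and 95.7% with it.

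Outside the mast-like and basophil-like classes, single UMIs of the mucosal proteases were spread over many cells of the OVA libraries. Of the cells outside these classes, 0.124%, 1.12%, 0.0514% and 7.00% held 1 to 4 Mcpt1 UMIs in the order Vehicle, Vehicle-OVA, Ribavirin, Ribavirin-OVA, and at least 91.9% of such cells in each library held exactly 1. In Ribavirin-OVA a Mcpt1 UMI was found in 15.4% of plasma cell-like, 13.6% of epithelial-like, 8.11% of macrophage-like, 5.47% of T cell-like and 4.90% of neutrophil-like cells. Thinned to 1000 UMIs, the shares were 0.786%, 0.711%, 1.42%, 0.936% and 1.93%, so the order seen at full depth was not kept. Per Mcpt1 UMI, these cells held 0.957 Mcpt2 UMIs in Ribavirin-OVA and mast-like cells 0.762. In Vehicle-OVA the values were 1.27 and 0.878. No profile of free RNA was measured, and these low counts were not read as expression.

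Other genes of the granules and of the IgE response were followed as a list of 21. At least 2-fold higher in Vehicle-OVA than in Vehicle were 13 of the 21, and 2 were at least 2-fold lower, where 12.8% and 12.5% of all genes were. In Ribavirin-OVA against Ribavirin the counts were 11 and 2 (12.5% and 3.44% of all genes), and 11 and 4 under size factor scaling (4.55% and 7.95%). In Ribavirin against Vehicle they were 3 and 0 (15.7% and 0.593%), so the 3 stand at the share of all genes. In Ribavirin-OVA against Vehicle-OVA they were 9 and 3 (23.0% and 4.11%), and 3 and 4 under size factor scaling. The median log2 folds of the list were 1.88, 2.12, 0.03 and 0.85, with genes at 0 in one library set at their bound. The protease relatives were higher with OVA, with Cma2 at 2, 349, 6 and 767 UMIs, Mcpt9 at 0, 53, 2 and 137, Tpsg1 at 1, 52, 1 and 119 and Tpsab1 at 4, 42, 4 and 23 in the order Vehicle, Vehicle-OVA, Ribavirin, Ribavirin-OVA. Cma2 and Mcpt9 share sequence with Mcpt4 or with each other at the 3′ end and their counts are uncertain. In Vehicle-OVA the highest cell of each gene held 88.7% of the Mcpt9, 56.4% of the Cma2 and 55.8% of the Tpsg1 UMIs. In Ribavirin-OVA 1 cell held 52.3% of the Cma2 UMIs, and mast-like cells held 46.8% of them.

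Genes of the receptor side were higher with OVA in both pairs. Fcer1a, the IgE-binding chain of FceRI, was 13.2-fold (8.59 to 21.1) and 20.2-fold (14.6 to 28.9) higher, and Ms4a2, its beta chain, 7.03-fold (4.66 to 10.9) and 15.3-fold (11.4 to 21.2). Il1rl1, the receptor of the alarmin IL-33, was 3.69-fold (3.43 to 3.96) and 9.11-fold (8.56 to 9.71) higher. Kit differed little, at 0.900 (0.849 to 0.953) and 1.03 (0.976 to 1.09). In the order Vehicle, Vehicle-OVA, Ribavirin, Ribavirin-OVA, mast-like cells held 2.22%, 7.17%, 1.28% and 5.73% of the Il1rl1 UMIs. Of the Kit UMIs they held 1.15%, 7.73%, 0.919% and 20.1%. The library ratios of Il1rl1 and Kit thus mostly describe other cells. Within mast-like cells Kit per UMI stood at 0.691 (0.480 to 1.02) and 1.22 (0.842 to 1.84), and both intervals include 1.

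Several partner genes are also used by other cells. Hdc, which makes histamine, was 5.63-fold (5.57 to 5.70) higher in Vehicle-OVA than in Vehicle and lower in Ribavirin-OVA than in Ribavirin, at 0.628 (0.617 to 0.639), and neutrophil-like cells held 88.3% to 95.8% of its UMIs. Srgn, the serglycin core protein, went the same ways at 1.91 (1.90 to 1.92) and 0.549 (0.546 to 0.553). Within mast-like cells Srgn was at 0.917 (0.717 to 1.19) and 1.48 (1.15 to 1.94). Ltc4s, leukotriene C4 synthase, and Ctsg, cathepsin G, were the genes at least 2-fold lower with OVA in both pairs. Ltc4s was at 0.349 (0.331 to 0.367) and 0.486 (0.460 to 0.513), and Ctsg at 0.325 (0.209 to 0.490) and 0.434 (0.343 to 0.544). Mast-like cells held at most 0.670% of the Ltc4s UMIs of a library, and neutrophil-like cells 55.0% to 70.5%. In the order Vehicle, Vehicle-OVA, Ribavirin, Ribavirin-OVA, mast-like cells held 1, 3, 1 and 0 of the 144, 28, 401 and 95 Ctsg UMIs. The library ratios of both genes thus mostly describe other cells.

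The genes whose pattern over the 79132 cells was most like each member followed the classes. Pearson's r was taken over log-scaled values of the cells pooled from the 4 libraries, for genes other than the members seen in at least 20 cells. It is a description, since cells share a library and its depth. Tph1 (tryptophan hydroxylase, the starting enzyme of serotonin synthesis) was among the nearest for Mcpt1 at 0.575, for Mcpt2 at 0.567, for Mcpt4 at 0.714 and for Tpsb2 at 0.591. After it came Atp8b5 for Mcpt1 and Mcpt2, Tpsg1 for Mcpt4 and Tpsab1 for Tpsb2. Cpa3 was nearest to Fcer1a (0.670), and Tph1 was also on its list. Mcpt8 was nearest to Cd200r3 (0.517), a marker of the basophil side. Next came Ms4a2 (0.487) and Gata2 (0.475), which were markers of mast cells and basophils jointly. Cma1 was nearest to Prf1, the gene of perforin in cytotoxic cells, at 0.428, and Serpinb9b at 0.411 was also on its list. Prss34 had no close neighbour, and Csrp3 at 0.235 led its list.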

How the data were processed

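CD45+ cells of digested nasal mucosa had been sequenced on the 10x 3′ platform (the labels name magnetic isolation, the series text fluorescence-activated sorting). The authors deposited integer UMI counts per gene and called cell, not normalized. The submitters' processing notes name Cell Ranger 5.0.0 and mm10. The annotation is not given in the sources used here.

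All deposited cells were used. UMIs were summed per library or class and scaled to CPM (counts per 1000000 UMIs). A class needed at least 2 of its 6 markers, and ties went to the class with more marker UMIs. Intervals are exact at 95% (Poisson, Clopper-Pearson, conditional binomial for ratios). A gene counted against the background needed 50 UMIs over the 4 libraries and a 2-fold ratio. Thinning drew 1000 UMIs a cell. Gene positions are those of GENCODE M21, and its relation to the annotation behind the counts is not known. The text names the 8 members, 21 granule partner genes, the 3 most similar genes of each member (1 gene on these lists is not reported here), and markers where a class is described. The members, the lists and the tests were chosen with earlier results of these data known. Python 3.11.15, numpy 2.4.6, scipy 1.17.1, pandas 2.3.3 and matplotlib 3.10.9 were used, and the ratios with their intervals were tested on simulated data. Alternatives concerned cells, scaling, thresholds, depth and mixed cells. Leaving out Cma1, the class values without mixed or deepest cells or with at least 3 markers, and the background under size factors (median of ratios over genes with 50 UMIs in every library) were chosen after seeing the data.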

Additional observations from a re-analysis of the deposited data

Results flagged for a closer look

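Prss34, the rarest member, moved in opposite directions in the 2 OVA comparisons. The log2 ratio of its CPM was −0.19 for Vehicle-OVA over Vehicle (11 and 21 UMIs) and 2.87 for Ribavirin-OVA over Ribavirin (4 UMIs and 1 UMI). Each group was 1 library, and the difference between the comparisons was not tested. Both counting intervals include no difference.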

How the results depend on the processing

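With 1 library per group no replicate could be left out. No paired analysis was possible because each group is 1 library without a replicate number. Over 7 alternative settings of cells, scaling and UMIs, 209 CPM ratios of members were recomputed. Of these, 132 stayed within the counting interval, 73 moved beyond it and 4 turned from at least 2-fold to the other direction. Of the 137 that were at least 2-fold in the reported values, 129 remained so, and of the 99 of these between libraries with and without OVA 97 did. In all, 189 kept their direction and 20 did not. Size factors ended the calls of Mcpt2, Mcpt4 and Cpa3 in Ribavirin-OVA over Vehicle-OVA. The 4 that turned from such a call, as log2 values, were Cma1 counted only in cells with 1 to 4 UMIs (−1.09 with vehicle, −0.30 with ribavirin) and Prss34 in Ribavirin-OVA over Vehicle-OVA, at 1.16 without its highest cell and 2.16 in cells with 1 to 4 UMIs.

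The log2 ratio of the share of protease cells in Vehicle-OVA over Vehicle was 1.12 and turned to −0.037 at 3 UMIs and −0.16 without mixed cells. At 10 UMIs it was higher, with shares of 0.0888% and 0.0248%. In Ribavirin-OVA over Ribavirin the log2 ratio was 2.47, and 1.39 at 3 UMIs, 4.14 at 10 UMIs and 3.92 at 1 UMI without thinning. Ribavirin-OVA over Vehicle-OVA moved from 1.57 to 2.60 without mixed cells. Leaving Cma1 out of the list gave 1.70 and 3.05 for the pairs with OVA.

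Without mixed cells, mast-like protease cells numbered 29 in place of 44, basophil-like 7 in place of 24 and NK-like 11 in place of 19. NK-like protease cells numbered 77 at 3 UMIs and 0 at 10. Without mixed cells Mcpt1 met Mcpt2 in 24 cells, Mcpt4 in 13 and Mcpt8 in 2. Within classes, 23 of 24 ratios of mast-like cells kept their direction without mixed cells and 24 of 24 without the deepest cell of each library and with at least 3 of the 6 markers. Without the deepest cell of the first library alone 22 of 24 did. Cpa3 in basophil-like cells, Ribavirin-OVA over Ribavirin, turned to −2.63 without mixed cells, −2.40 without the deepest cell of each library and −2.27 without that of Ribavirin-OVA alone. Beyond what the settings themselves leave out, the cause was not tested. Classes of 5 to 27 cells in 1 library limit every value within them.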
